A study of Mus musculus with 8 samples.

Results

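Libraries of long chromatin fragments, over 1100 bp, were set against libraries of medium fragments, 600 to 1100 bp, made from the same H3K27me3 chromatin immunoprecipitation (ChIP) samples of mouse liver. The members were the island lists of replicate 1 of each treatment, paired by ChIP sample from the labels: 4 of the 8 libraries, holding 63470 of the 107140 islands. An island is a stretch of 400 bp windows enriched for reads, and each list holds the position and the authors' score of every island called in 1 library. The medium lists held 10057 islands (vehicle) and 13759 islands (TCPOBOP). The long lists held 17577 and 22077.

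All livers came from wild-type male CD-1 mice aged 7 weeks, an outbred stock. The vehicle liver was taken 3 h after 1% DMSO in corn oil and the TCPOBOP liver 3 h after TCPOBOP at 3 mg/kg. TCPOBOP activates CAR, a nuclear receptor that switches on drug-metabolising genes in hepatocytes. Medium fragments were digested to 500 bp before sequencing and long fragments to 200 bp. Chromatin came from single livers, so each pair was 1 animal in 2 libraries, and whole liver mixes hepatocytes with other cells. The comparison of fragment classes was made in 2 livers, 1 per treatment. No test was made of it, since an exact two-sided sign-flip test over 2 pairs cannot give a p under 0.5. Shares below are counts over islands, and the 2 pairs are given side by side.

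H3K27me3, trimethylation of lysine 27 on histone H3, is written by Polycomb repressive complex 2. It marks silent genes, above all the regulators of embryonic development that a differentiated tissue keeps off, and spreads in broad domains over gene clusters such as the Hox genes. The complex is known to be drawn to CpG-rich promoters, while actively transcribed genes such as albumin in hepatocytes carry little of the mark. Where a broad domain begins, ends or breaks in a ChIP-seq list depends on both the chromatin and the reads available to the caller.

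The sequences just upstream of 5 genes, 4 with islands described below and Alb with none, are shown next. Sox1 is CpG-rich and Alb CpG-poor, while Eomes, Foxa2 and Cyp2b10 lie nearer the median of all promoters. Alb, the gene without an island, also had the lowest CG count of the 5. A single gene without an island allows no conclusion on CpG content and islands. Each is the 250 bases before the first listed start of the gene, 5′ to 3′ on the gene's strand, from RefSeq on build GRCm38.p6, with every CG in capitals (CG reads the same on both strands). Sox1 and Eomes encode transcription factors of early neural tissue and of mesoderm, Foxa2 a pioneer factor of liver and gut, Cyp2b10 a drug-metabolising enzyme induced through CAR, and Alb serum albumin.
Sox1: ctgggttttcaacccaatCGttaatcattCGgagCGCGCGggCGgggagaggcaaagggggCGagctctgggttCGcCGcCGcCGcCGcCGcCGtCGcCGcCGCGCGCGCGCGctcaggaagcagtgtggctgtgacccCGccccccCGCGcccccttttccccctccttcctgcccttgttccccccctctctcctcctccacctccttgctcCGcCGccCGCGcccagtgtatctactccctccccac
Eomes: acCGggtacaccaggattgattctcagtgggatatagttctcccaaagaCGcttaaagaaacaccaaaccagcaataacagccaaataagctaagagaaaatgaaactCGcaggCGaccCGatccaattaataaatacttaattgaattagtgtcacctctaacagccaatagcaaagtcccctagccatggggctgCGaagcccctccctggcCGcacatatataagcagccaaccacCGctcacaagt
Foxa2: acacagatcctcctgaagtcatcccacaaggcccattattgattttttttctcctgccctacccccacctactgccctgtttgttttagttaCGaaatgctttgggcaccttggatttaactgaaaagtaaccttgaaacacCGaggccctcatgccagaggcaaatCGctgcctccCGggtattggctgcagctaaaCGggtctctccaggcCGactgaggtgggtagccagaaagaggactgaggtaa
Cyp2b10: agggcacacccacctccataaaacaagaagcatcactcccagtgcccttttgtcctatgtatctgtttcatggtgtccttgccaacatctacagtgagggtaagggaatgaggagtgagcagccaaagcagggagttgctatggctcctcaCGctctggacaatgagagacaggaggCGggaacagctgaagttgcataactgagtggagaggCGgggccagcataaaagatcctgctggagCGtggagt
Alb: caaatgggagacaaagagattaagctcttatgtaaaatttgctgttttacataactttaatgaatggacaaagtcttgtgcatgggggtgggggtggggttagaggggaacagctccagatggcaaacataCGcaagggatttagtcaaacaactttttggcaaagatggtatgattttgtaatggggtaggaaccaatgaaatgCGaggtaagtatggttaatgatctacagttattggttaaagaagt
The Sox1 sequence holds 29 CG, Eomes 8, Foxa2 6, Cyp2b10 4 and Alb 2. At least as many were found in 6.43%, 43.4%, 50.5%, 61.9% and 80.6% of all 27025 RefSeq promoters. Of 39 genes looked up at the named loci, 25 had a promoter entry. The 14 developmental genes among them held a median of 14.5 CG and the 9 hepatocyte genes a median of 3, against 6 over all promoters. Foxa2 has 3 listed starts, and the first was used.

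The long libraries were the deeper ones in both pairs. Mean background reads per 400 bp window, worked out from the island scores, were 3.01 for the vehicle medium library and 14.2 for the vehicle long library, a ratio of 4.70. For the TCPOBOP liver they were 2.47 and 14.5, a ratio of 5.87. Fragment class, digestion length and depth changed together in both pairs and cannot be told apart, which holds for every difference between classes below. The share of background windows that would reach the calling threshold by chance was alike within the vehicle pair, 18.7% for medium and 18.5% for long, and was 10.5% against 14.6% within the TCPOBOP pair. Both long lists lack any island over the HoxB cluster and its surroundings, a stretch of 490 kb in the vehicle list and 491 kb in the TCPOBOP list. Rows may be missing there and elsewhere, so an island that drops is not read as chromatin without the mark.

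Islands of the long lists covered more of the genome, and islands of 100 kb or more made up a larger share. The vehicle lists covered 340.1 Mb (medium) and 654 Mb (long), and the TCPOBOP lists 248 Mb and 676 Mb. The median width changed less and not in 1 direction, with a median of 26.8 kb (medium) and 24.4 kb (long) in the vehicle liver and of 14.4 kb and 19.6 kb in the TCPOBOP liver. Islands of 100 kb or more numbered 267 in the medium list and 1078 in the long list of the vehicle liver, 2.65% and 6.13% of islands. In the TCPOBOP liver they numbered 48 and 907, or 0.349% and 4.11%.

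Most medium islands had a counterpart in the long list of the same ChIP sample, and where they changed form they were more often joined than split. In the vehicle pair 44.2% of medium islands matched a single long island that matched nothing else (one-to-one), 27.5% lay with at least 1 other medium island under a single long island (joined), 5.45% were cut into several long islands (split), 14.6% belonged to groups with several islands on both sides (mixed) and 8.20% met no long island (dropped). In the TCPOBOP pair the shares were 39.2% one-to-one, 39.8% joined, 2.45% split, 10.1% mixed and 8.4% dropped. These shares are the background against which the named loci below are read. The Wilson 95% interval of the dropped share was 7.68 to 8.76% in the vehicle pair and 7.95 to 8.88% in the TCPOBOP pair, and covers counting error over islands only.

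**Figure D1:**
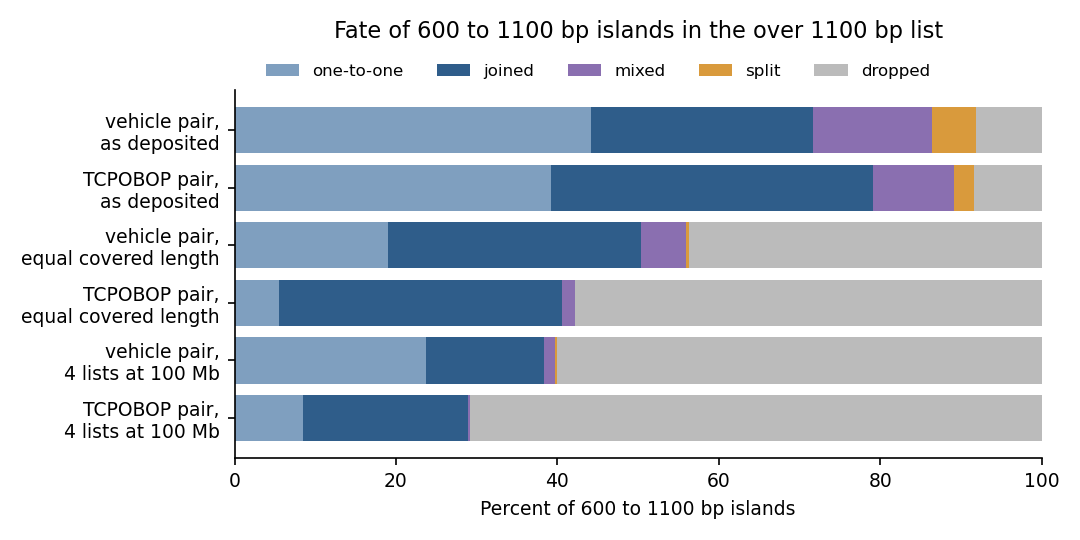
Share of medium (600 to 1100 bp) islands by their fate in the long (over 1100 bp) list of the same ChIP sample, in percent, for the lists as deposited, for the long list cut to the covered length of the medium list, and for all 4 lists cut to 100 Mb. Joined islands outnumber split ones in every bar, and the dropped share grows from 8.20% and 8.4% to 43.7% and 57.8% at equal covered length.

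The cut to equal covered length by score left fewer and wider long islands. The vehicle long list shrank to its 3956 highest-scoring islands, with a median width of 69.2 kb and scores of at least 746, and the TCPOBOP long list to 2458 islands, with a median of 84.4 kb and scores of at least 1104.3. At these lengths 43.7% of vehicle medium islands dropped, 31.4% were joined, 19.0% were one-to-one, 5.48% were mixed and 0.378% split. Of the TCPOBOP medium islands 57.8% dropped, 35.1% were joined, 5.46% were one-to-one, 1.58% were mixed and 0.0218%, or 3 islands, split. The joined share differed less from that of the lists as deposited than the one-to-one and dropped shares did, and nearly all splits and most one-to-one matches were gone. The 2 lists of the vehicle liver then shared 61.6% of their length, and those of the TCPOBOP liver 50.1%.

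In the lists as deposited, most joins brought together 2 medium islands. In the vehicle pair 1077 long islands joined 2768 medium islands, 707 of them joining exactly 2 and 56 joining 5 or more, with a maximum of 13. The joining islands had a median width of 101 kb, 1.26 times the summed width of what they joined. In the TCPOBOP pair 1923 long islands joined 5479, with 185 joining 5 or more and a maximum of 16. There the median joining island was 74.0 kb wide and 1.62 times the summed width. At equal covered length 62.3% of vehicle joins but 44.9% of TCPOBOP joins were of 2. As deposited, the TCPOBOP joins thus included more length that lay between or outside the medium islands.

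The islands with the most joins lay in very wide domains. In the vehicle pair chr9:49140401-49790800 (mm9, 650.4 kb) joined 13 medium islands and ranked 7 by score of 17577. The TCPOBOP long list had chr9:49287601-49790000 there (502 kb, rank 11 of 22077), which joined 13. The TCPOBOP list's fullest joins were chr7:139191201-139710800 with 16 medium islands and chr11:81366401-81822400 and chr7:143437201-143846800 with 15 each. In the vehicle list chr16:92620801-93251600 and chr4:130785601-131398400 joined 12 each. All 10 islands with the most joins, 5 per pair, ranked between 7 and 42 by score in their long lists. Genes are not named for these positions because no mm9 annotation was used here.

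Gaps between medium islands were bridged more often the narrower they were. Gaps of up to 5 kb were covered by a single long island in 73.7% of 2055 cases in the vehicle pair and in 81.8% of 2672 in the TCPOBOP pair. For gaps of 20 to 50 kb the shares were 20.6% and 24.3%, and for gaps over 100 kb 0.567% and 0.368%. In the opposite direction, gaps between long islands of up to 5 kb were covered by a single medium island in 20.3% of 4724 cases in the vehicle pair and 11.5% of 6093 in the TCPOBOP pair. No long-list gap over 50 kb was bridged by a medium island in either pair.

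**Figure D2:**
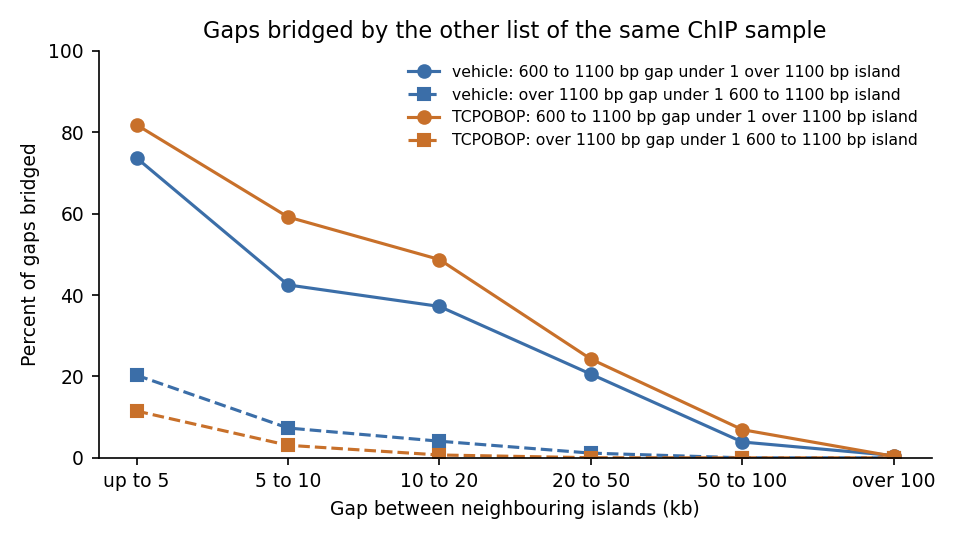
Percent of gaps between neighbouring islands that lay under a single island of the other list of the same ChIP sample, by gap size in kb. Solid lines with circles are gaps of the medium (600 to 1100 bp) list and dashed lines with squares gaps of the long (over 1100 bp) list; solid lines run from 73.7% and 81.8% at the narrowest gaps to under 1% at the widest.

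The stretches filled in by long islands were largely the same in both livers. Of the gap length bridged in the vehicle pair, 94.2% lay under islands of the TCPOBOP long list, against 17.0% of the length of the gaps that were not bridged. For the TCPOBOP pair the shares in the vehicle long list were 96.8% and 17.5%. A bridged gap lies inside a long island by definition and an unbridged gap does not, so this contrast is partly set in advance. A background is the long lists as a whole: of 654 Mb (vehicle) and 676 Mb (TCPOBOP), 576 Mb was covered in both livers. A closer one is the joining long islands, whose length lay under the other long list for 95.7% (vehicle) and 96.7% (TCPOBOP). The bridged gaps were thus shared about as much as those islands. For the bridged gaps over 100 kb, 18 in the vehicle and 14 in the TCPOBOP pair, the shares were 97.3% and 99.4%. The filled stretches were thus shared by the long libraries of 2 animals under different treatments, which were also the deeper libraries of each pair.

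Splits were fewer and were found most often among strong, wide islands. In the vehicle pair 497 of 548 split islands were cut in 2, and in the TCPOBOP pair 320 of 337. The split share was 1.79% in the lowest quintile of vehicle medium islands by score and 12.2% in the highest quintile, where the median width was 58.0 kb against 18.4 kb. For the TCPOBOP medium islands it went from 0.872% to 5.27%. A wider island can overlap more long islands, and score and width were not separated here. The longest that split were chr11:85543601-85841600 in the vehicle liver (298 kb, rank 13 of 10057, in 2 long islands) and chr4:46263201-46387600 in the TCPOBOP liver (124 kb, rank 32 of 13759, in 2). The vehicle island chr7:142698801-142874400 (176 kb) fell into 4.

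Dropped islands were mostly weak. Their share by score went from 17.7% in the lowest quintile to 0.646% in the highest in the vehicle pair, and from 17.8% to 0.981% in the TCPOBOP pair. They also recurred less often in the medium lists of the 5 other livers. No overlapping island was found in any of the 5 for 35.9% of dropped vehicle islands and 32.7% of dropped TCPOBOP islands, against 12.4% and 12.2% of one-to-one islands. An island in all 5 was found for 2.91% and 4.93% of dropped against 19.4% and 22.0% of one-to-one islands. The long list of the other treatment lacked them as well in 67.6% of vehicle cases and 82.2% of TCPOBOP cases. It lacked 2.3% and 7.15% of one-to-one islands. Dropped islands are absent from their own long list by definition, and the 2 long lists shared 576 Mb. This contrast is thus partly set in advance.

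The few strong islands that dropped included the HoxB island, described below, and some in regions where the other long list had an island. The vehicle medium island chr12:81598001-81683200 (85.2 kb, rank 678) lay in a gap of 1379.2 kb of the vehicle long list, yet under an island of the TCPOBOP long list. The vehicle island chr8:24216001-24290400 (74.4 kb, rank 535) lay in gaps of 452 kb and 447 kb in the vehicle and TCPOBOP long lists, and the TCPOBOP island chr8:24137201-24186400 (49.2 kb, rank 1072) dropped in the same gaps. On chromosome 19 the TCPOBOP island chr19:56924401-56987200 (62.8 kb, rank 77 of 13759) lay in gaps of 195 kb and 193 kb.

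In the opposite direction over 50% of long islands had no medium counterpart. These gained islands numbered 9723 of 17577 in the vehicle pair (55.3%, 245 Mb, median width 20.4 kb) and 13176 of 22077 in the TCPOBOP pair (59.7%, 271 Mb, 16.4 kb). The long list of the other treatment covered 80.6% of the gained length of the vehicle liver and 72.8% of that of the TCPOBOP liver. Of the length of one-to-one long islands it covered 90.2% and 89.7%. The medium lists of the 5 other livers covered far less of the gained length, 4.36 to 10.7% and 4.02 to 10.1%. For comparison, those 5 lists covered 31.2 to 50.1% of the one-to-one long islands of the vehicle liver and 27.3 to 51.2% of those of the TCPOBOP liver. By definition gained islands have no medium island in their own liver and one-to-one islands have one. The contrast between them is thus partly set in advance. The widest gained islands were chr12:108608401-108841600 in the vehicle liver (233 kb, rank 1234) and chr16:5978801-6237600 in the TCPOBOP liver (259 kb, rank 564). After the cut to equal covered length 439 and 126 long islands remained gained, 11.1% and 5.13%.

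Where an island kept a single counterpart, its ends in the lists as deposited moved in both directions in the vehicle pair and mostly outward in the TCPOBOP pair. Of 4444 one-to-one islands of the vehicle pair 59.7% were wider in the long list, 37.9% narrower and 41 had both ends unchanged, with a median width ratio of 1.12. Of 5400 in the TCPOBOP pair 76.9% were wider, 21.6% narrower and 25 unchanged, with a median ratio of 1.57. The median outward shift of an end was 0.4 kb in the vehicle pair, a single window, and 2.8 kb in the TCPOBOP pair. Width at least doubled for 898 islands (20.2%) and 2073 islands (38.4%). The one-to-one island that widened most in the vehicle liver was chr8:121110001-121132000 (rank 9199 of 10057), which went from 22.0 to 311 kb. In the TCPOBOP liver it was chr2:178141601-178152000 (rank 5355 of 13759), from 10.4 to 248 kb. After the cut to equal covered length the ends lay further out in both pairs, with a median outward shift of 2.4 and 10.4 kb. The median width ratio was 1.32 and 2.36, and 71.3% and 83.6% of one-to-one islands were wider, 31.8% and 55.7% at least doubled. Only the long lists were shortened, and the cut by score kept their wider islands, with medians of 69.2 and 84.4 kb against 24.4 and 19.6 kb before it. The larger shifts and ratios come with that selection and are no check on the widening.

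Islands with both ends unchanged included some of high score. The island chr2:77808001-77835600 (27.6 kb) had the same ends in all 4 lists and ranked 10 of 10057 in the vehicle medium list and 2 of 13759 in the TCPOBOP medium list. In the TCPOBOP pair its neighbours chr2:77842001-77850400 (8.4 kb) and chr2:77797201-77802000 (4.8 kb) also kept both ends. In the vehicle pair chr5:28433201-28548800 (116 kb, rank 61) and chr9:51519201-51662800 (144 kb, rank 103) did so. In the vehicle medium list the chr2 island scored 5015.6 over 27.6 kb, against 1830.8 over 144 kb for the chr9 island. The cause of this high score for its width was not tested, so it is not read as the strength of a domain.

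**Figure D3:**
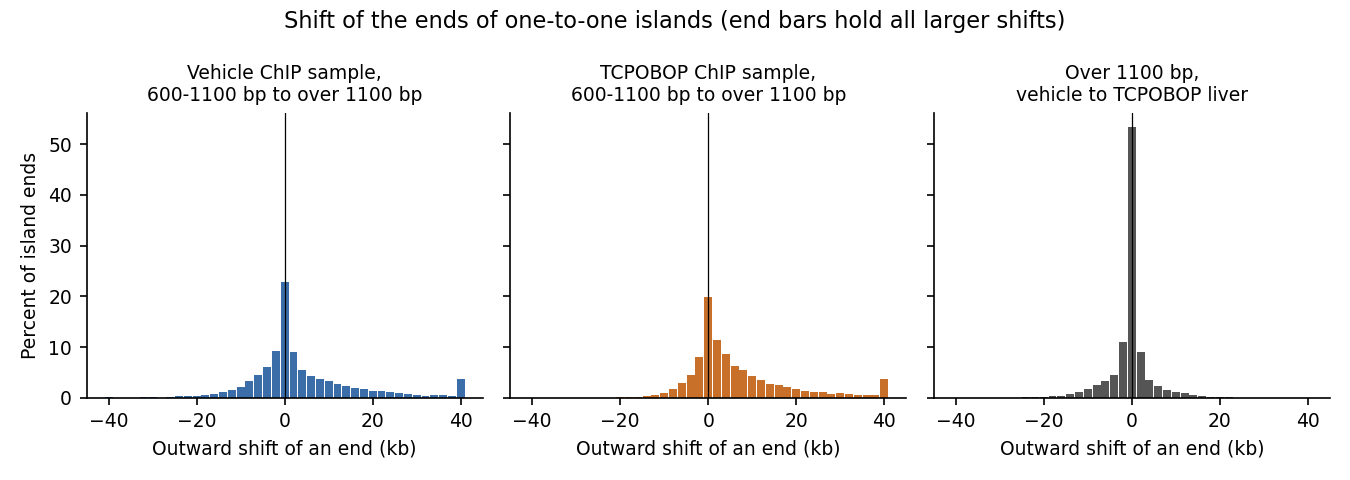
Outward shift in kb of the ends of one-to-one islands, in percent of ends, from the medium to the long list of the vehicle and of the TCPOBOP ChIP sample, and between the long lists of the 2 livers; positive is wider in the second list, and the outermost bars hold all larger shifts. The TCPOBOP pair leans outward, with a median of 2.8 kb, while the long lists of different livers centre on 0.

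Island ends matched better between the long lists of different livers than between the classes of the same ChIP sample. Ends lay within 2 kb for 35.1% of ends in the vehicle pair and 32.9% in the TCPOBOP pair. Between the vehicle and TCPOBOP long lists, with 11085 one-to-one islands, the share was 68.8%, and 685 islands had both ends the same. Medium lists of different livers, in 15 pairs, gave 29.5 to 43.0% with a median of 34.3%. A medium list against the long list of another liver, in 10 pairs, gave 24.7 to 37.0%. As deposited, the values of the same ChIP sample thus lay within the range found for different livers. With every list cut by score to at most the covered length of the TCPOBOP medium list (2 lists were shorter and stayed whole), the share was 63.3% between the long lists, 28.3% and 23.6% within the pairs and 27 to 42% between medium lists. A medium list against another liver's long list then gave 16.2 to 27.8%, just below the vehicle pair and around the TCPOBOP pair. Scores of one-to-one islands had a rank correlation across islands of 0.509 in the vehicle pair and 0.425 in the TCPOBOP pair, against 0.899 between the long lists and 0.662 between the medium lists of the same 2 livers. Islands are not independent replicates, and the 2 long libraries share fragment class, digestion and depth.

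**Figure D4:**
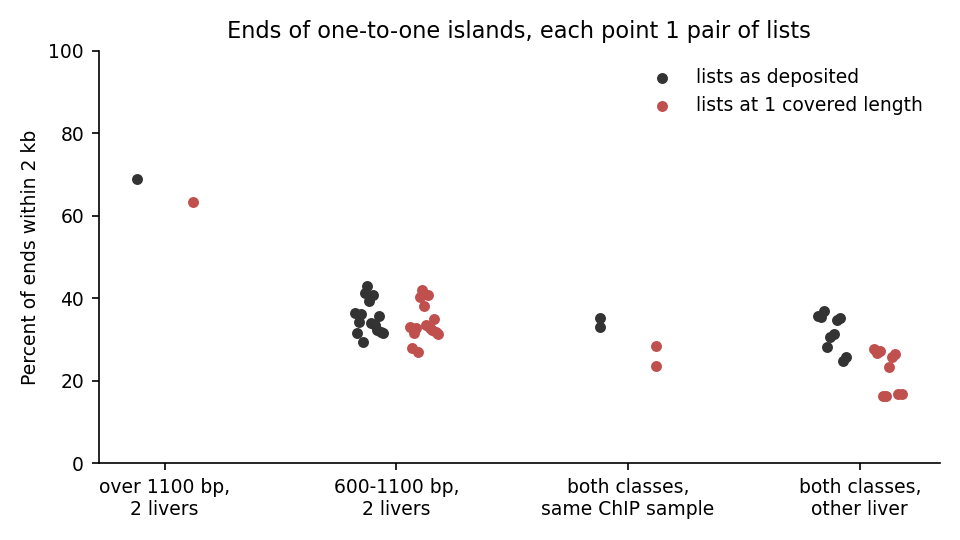
Percent of ends of one-to-one islands lying within 2 kb of each other, each point 1 pair of lists, as deposited (dark) and with each list cut to at most the covered length of the TCPOBOP medium list (red). The pair of long lists, at 68.8% and 63.3%, lies above every other pair of lists.

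The fates within the same ChIP sample lay partly within and partly outside the range found for medium lists of other livers. Against the vehicle long list, the medium list of the same sample had 8.20% dropped and the medium lists of the 5 other livers 6.49 to 11.6%, and 27.5% joined against 27.3 to 42.9%. Its mixed share of 14.6% lay above theirs of 7.75 to 10.7%. Against the TCPOBOP long list the own medium list had 8.4% dropped against 4.98 to 9.53%, and 39.8% joined against 23.2 to 38.7%. The covered length of the own medium list under the long list was 83.2% against 82.4 to 86.9% for the vehicle liver and 85.9% against 82.5 to 86.8% for the TCPOBOP liver. For equal covered length the long list was cut to the length of each medium list in turn, so the 6 cuts differed. The vehicle medium list was the longest, 340.1 Mb against 174 to 284 Mb, and so met the most long islands. Rankings of these shares therefore depend on the cut and are not read as a trait of the sample. At equal covered length the vehicle medium list had the lowest dropped share of the 6 against its own long list, 43.7% against 51.5 to 66.9%. The same medium list also had the lowest against the TCPOBOP long list, 42.8%, so its low share was found against both long lists. It likewise had the highest one-to-one share (19.0% against 2.54 to 11.3%), mixed share (5.48% against 1.06 to 3.08%) and split share (0.378% against 0 to 0.0785%) against its own long list at equal covered length, and values of 21.5%, 6.57% and 0.646% against the TCPOBOP long list.

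Differences between the 2 livers in the medium lists were mostly not kept in the long lists. Of 154 Mb covered in the medium list of the vehicle liver alone, the long lists covered 68.1% in both livers, 6.27% in the vehicle liver alone, 4.78% in the TCPOBOP liver alone and 20.9% in neither. Of 61.9 Mb covered in the medium list of the TCPOBOP liver alone, 65.0% was covered in both long lists, 7.40% in the TCPOBOP liver alone, 4.77% in the vehicle liver alone and 22.8% in neither. For comparison, of 186 Mb covered in both medium lists, the long lists covered 87.7% in both livers and 6.65% in neither. They covered 2.91% of it in the vehicle liver alone and 2.74% in the TCPOBOP liver alone. Long-list length found in 1 liver alone amounted to 77.9 Mb for the vehicle liver and 100 Mb for the TCPOBOP liver, against 576 Mb in both. Of these 77.9 and 100 Mb, the medium lists covered 76.9 and 83.0% in neither liver. They covered 12.4 and 7.35% in the vehicle liver alone, 3.79 and 4.58% in the TCPOBOP liver alone and 6.97 and 5.1% in both. With 1 liver per treatment, treatment and animal cannot be told apart.

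The ratio of long to medium covered length differed between chromosomes, with similar extremes in both pairs. Chromosome 11 had the smallest ratio in both pairs, 1.51 in the vehicle and 2.14 in the TCPOBOP pair. Chromosome 3 had 2.78 and 3.63 and chromosome 18 had 2.47 and 3.67, the highest autosomal values. The 2 long lists hold no HoxB island on chromosome 11, where rows may be missing. Chromosome 3 medium lists covered 11.5 and 9.02 Mb, and those of chromosome 11 covered 29.9 and 21.5 Mb.

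The Hox clusters, which pattern the body axis, showed how far the 2 classes could differ over the same domain. The HoxA window lay under 1 island in every list, of 289.6 kb (medium) and 311 kb (long) in the vehicle liver and of 192 kb and 303 kb in the TCPOBOP liver. The medium islands of the other 4 livers there were 153 to 254 kb wide. In the TCPOBOP liver the long island joined 3 medium islands. The HoxC island measured 362 and 363 kb in the vehicle liver and 202 and 364 kb in the TCPOBOP liver. There 6 medium islands were joined. In the vehicle liver the near-equal HoxC widths came with shifted positions, and the fate was mixed. The medium island spanned chr15:102660401-103022000 and the long island chr15:102556001-102919200. The HoxD island measured 185 and 212 kb and 154 and 210.4 kb. So the medium lists placed these 3 domains at different widths in the 2 livers while the long lists placed them within 8 kb of each other in width. The HoxB window was covered by medium islands in all 6 livers, of 399 kb in the vehicle and 188 kb in the TCPOBOP liver, with none in either long list, where rows may be missing.

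The windows of 21 other developmental regulators lay under an island in all 4 lists. They include transcription factors of the Sox, Pax, Nkx, Dlx and Tbx families, the signal Shh and the cell-cycle inhibitors of the Cdkn2a-Cdkn2b locus. Medium islands over 10 windows were joined in the vehicle pair and over 14 in the TCPOBOP pair. The widest island was wider in the long list at 19 and 17 windows and at least doubled at 8 and 12, with median ratios of 1.67 and 2.15. A related measure over all medium islands with a long counterpart, the widest long island over each, gave 73.6% wider (of 9232) and 87.5% wider (of 12603). There 44.1% and 65.2% at least doubled, with median ratios of 1.70 and 2.97. It counts every medium island of a join, whereas a window used only its widest. The median ratio of the developmental windows was close to that of all islands in the vehicle pair and below it in the TCPOBOP pair. As the 2 measures are unlike, the difference is not read as a trait of these genes. These lists were chosen with earlier results known and are descriptions.

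In the TCPOBOP liver the width ratio was highest at Myod1, Tbx3, Eomes and Tbx5, which were picked out after their values were seen. At Myod1, the master regulator of skeletal muscle, the island went from 108 to 340.4 kb in the vehicle liver and from 14 to 270.4 kb in the TCPOBOP liver, where it joined 9 medium islands. Medium islands at Myod1 in 3 of the other livers were 24.4, 29.2 and 58.0 kb wide, and TCPOBOP replicate 3 had none. At Eomes it went from 37.6 to 226 kb and from 14.8 to 148 kb, against 28 to 38.4 kb in the other medium lists. Tbx3 and Tbx5, T-box factors of limb and heart, had separate medium islands (71.2 and 155 kb in the vehicle liver, 21.2 and 30.4 kb in the TCPOBOP liver). A single long island of 288 kb and of 263 kb spanned both genes.

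Sox1, whose CG-rich upstream sequence is shown above, lay under the highest-scoring island of both long lists. It spanned chr8:11937201-12623200 in the vehicle and chr8:11937601-12626000 in the TCPOBOP long list, 686 and 688 kb. The vehicle medium list held nearly the same domain, at 692 kb and also of the highest score, whereas the TCPOBOP medium island was 189.6 kb and 6 medium islands were joined there. The other 4 medium lists had 36.8 to 280.4 kb. Pax2, a regulator of kidney development, went from 124 to 285 kb and from 75.6 to 284 kb, and Nkx2-1, of lung and thyroid, from 56.8 to 195 kb and from 53.2 to 194 kb.

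Other domains kept their size. The island over Cdkn2a-Cdkn2b was 50.4 kb (medium) and 51.2 kb (long) in the vehicle liver and 50.4 and 50.8 kb in the TCPOBOP liver. Over Shh, a morphogen, it was 32.4 and 36.8 kb and 35.6 and 35.6 kb, and over Olig2, a factor of oligodendrocytes and motor neurons, 36.0 and 40.4 kb and 49.6 and 49.2 kb. Gata4, a factor of heart and endoderm, was narrower in the long lists, 44.4 and 40 kb in the vehicle liver and 60.8 and 38.4 kb in the TCPOBOP liver, where the medium island split. At T, a factor of early mesoderm, it was 74.8 and 88.4 kb in the vehicle liver and 89.6 and 90.0 kb in the TCPOBOP liver. Thus islands over developmental genes did not widen everywhere.

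**Figure D5:**
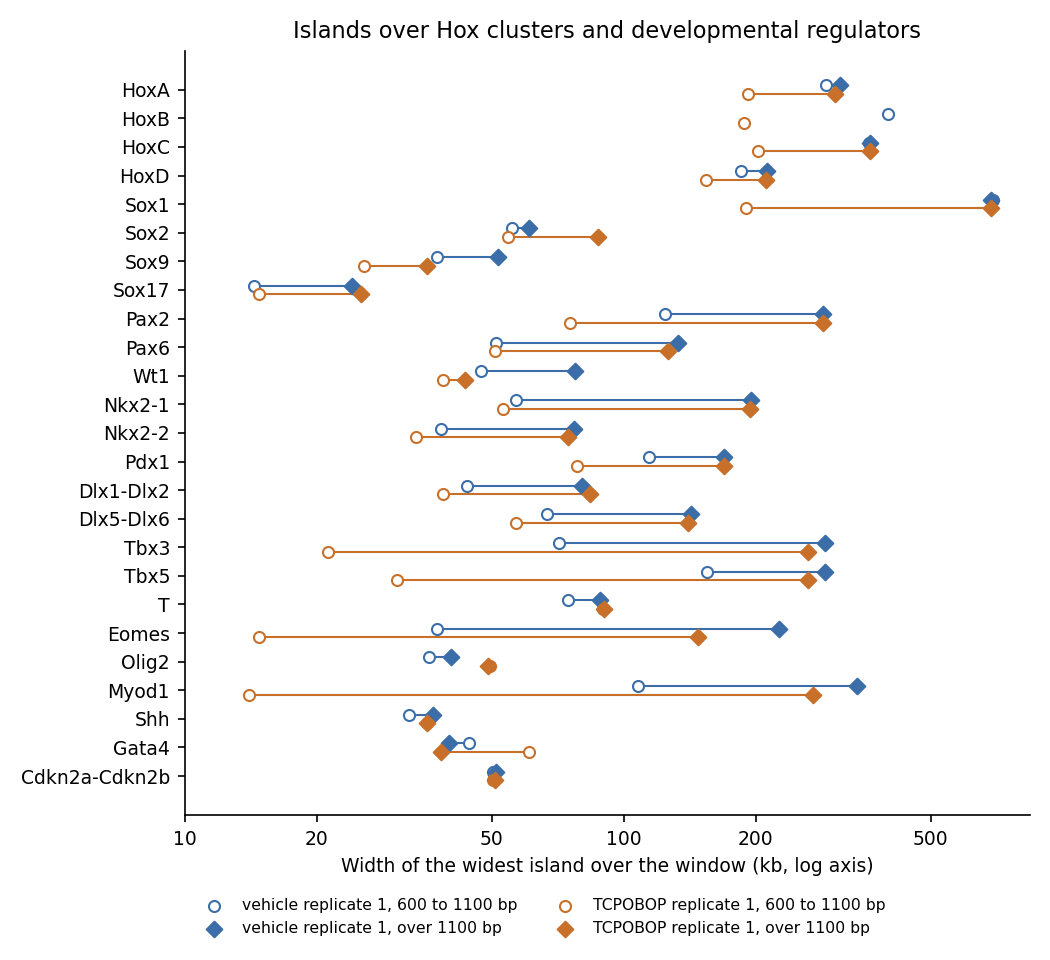
Width in kb, on a log axis, of the widest island over the windows of Hox clusters and 21 developmental regulators in the medium (open circles) and long (filled diamonds) lists of the vehicle (blue) and TCPOBOP (orange) liver, joined by a line per liver. The filled symbols of the 2 livers lie close together at most loci, and the lines are longest at Myod1, Tbx3, Eomes and Tbx5 in the TCPOBOP liver.

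Over these loci too the 2 livers were closer in the long lists. At 24 loci with a long island in both, the ends of the widest island differed between livers by a median of 1.0 kb, 32 of 48 ends lay within 2 kb and 14 were the same. In the medium lists, at 25 loci, the median difference was 7.4 kb, 14 of 50 ends lay within 2 kb and 1 was the same. The largest long-list difference was 84.0 kb, against 385 kb in the medium lists.

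Most windows of hepatocyte genes lay outside the islands, and the activity of each gene in these livers was not measured. The windows of Alb-Afp, Apoa1-Apoc3-Apoa4, Fgb-Fga-Fgg, Cyp7a1, Cps1 and Hnf4a, which encode plasma proteins, metabolic enzymes and a liver transcription factor, had no island in any of the 4 lists, and neither had the housekeeping genes Actb and Gapdh. The greater length covered by the long lists therefore did not reach these windows. Foxa2 was the exception among 7 hepatocyte windows: in the vehicle liver an island of 33.6 kb in the medium list and of 38.0 kb in the long list lay over it, both of middle rank (4363 of 10057 and 6039 of 17577). The vehicle replicate 2 medium list had an island of 16.8 kb there, and the other 4 medium lists and the TCPOBOP long list had none. At Foxa2 the 2 classes thus agreed within each ChIP sample on whether an island was present. In the vehicle liver its ends differed between the classes, and its fate was mixed.

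Cyp2b10, the CAR target, had less island length in the long than in the medium list of both livers. In the vehicle liver the island over its window was 24 kb in the medium and 7.6 kb in the long list. In the TCPOBOP liver it was 16.4 kb in the medium list, and the long list had none. All 6 medium lists had an island in this window, the widest in the other livers being 9.6 to 10.4 kb. The vehicle medium island had rank 2834 of 10057, the vehicle long island rank 13469 of 17577 and the TCPOBOP medium island rank 7524 of 13759. Reads from near-identical Cyp2b genes beside Cyp2b10 can be shared between copies, so the position of these islands is uncertain.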

How the data were processed

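The deposited files were lists of H3K27me3 islands, 1 list per library, each island with chromosome, start, end and a score given by the authors. Per the submitters' processing notes the tools were Bowtie2 2.3.2 and SICER 1.1 and the build mm9; no roles are given. Islands were called per library on a 400 bp grid; a gap of 2400 bp is written in the deposited names. The score is relative to a background of its own library, so it ranked or cut islands within a list only. No read counts were given. Background reads per window were solved from the scores, assuming a score of minus the log Poisson probability and a window threshold at a Poisson tail of 0.2. The misfit of the chosen value was 3.66e-11 to 5.02e-09, against 4.28e-07 to 2.34e-04 for the next value.

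Overlaps of at least 1 base linked the islands of 2 lists, and connected groups gave the fates. On simulated lists 2821 of 2821 fates and 4 of 4 backgrounds came out as made. Lists were also cut by score to equal covered length, and 8 alternatives were run for 6 shares. Coordinates are 1-based mm9. No mm9 annotation was used here: locus windows are approximate positions from general knowledge, their edges follow no annotation, and promoters, from another build, were matched by symbol. Named regions are the 5 most extreme of each kind per pair, plus every locus window. The members, lists and rules were chosen with earlier results of these data known. Tables were computed with pandas 2.3.3 and numpy 2.4.6 under Python 3.11.15, and figures drawn with matplotlib 3.10.9. The replicate libraries of 600 to 1100 bp served only as values between livers.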

Additional observations from a re-analysis of the deposited data

How the results depend on the processing

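Shares are given per pair, so each pair is the value without the other liver. No paired test over the 2 pairs was made, as its exact two-sided p cannot go under 0.5. Of 48 recomputed shares, 6 stayed within the Wilson interval of the deposited lists and 42 moved. Cuts that shorten the long list raise drops and lower splits by construction; for the other settings the cause was not tested. Values are given for the vehicle pair and then the TCPOBOP pair. At equal covered length 43.7 and 57.8% dropped, 31.4 and 35.1% were joined and 0.378 and 0.0218% split. With the cut by score per kb, 32.5 and 46.9% dropped, 31.8% were joined in the TCPOBOP pair and 1.74 and 0.414% split. With 4 lists at 100 Mb, 60 and 70.8% dropped, 14.5 and 20.4% were joined and 0.320 and 0.0339% split. At equal numbers of islands, 18.2 and 15.3% dropped, 30.1 and 41.3% were joined and 2.23 and 1.1% split. Requiring an overlap of 50% of the shorter island gave 10.5 and 11.3% dropped, 31.9 and 43.2% joined and 4.41 and 1.24% split. A score of at least 100, which removes unlike parts of each list, gave 6.55 and 2.40% dropped, 26.1 and 29.6% joined and 6.56 and 5.34% split. Merging islands under 10 kb apart gave 9.07% dropped in the TCPOBOP pair, 35.7 and 47.6% joined and 2.83 and 0.868% split. Leaving out medium islands over 100 kb from any long island gave 6.70 and 7.16% dropped. In every setting more islands were joined than split in both pairs. Total reads were unknown, so intervals cover counts of islands only.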
